A study of Homo sapiens with 9 samples.

Results

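The genes of the interleukin-6 (IL-6) family were followed on 3 implant surfaces in MG-63 cells, an osteoblast-like line derived from a human osteosarcoma. The 10 members, of 36385 rows in the deposited table, were the rows whose symbol was on a fixed list: 4 ligands (IL6, LIF, IL11, CLCF1), 5 receptor chains (IL6R, IL6ST, LIFR, OSMR, IL11RA) and SOCS3, which encodes a feedback inhibitor. The surfaces were Ti6Al4V, a titanium alloy (bare alloy), Ti6Al4V with TiB2 (TiB2), and boronized Ti6Al4V with HA, as the labels call it (HA coating). Each had 3 libraries, and all 9 carried the same batch label. Cells of every group were kept for 7 days in osteogenic medium with dexamethasone at 100 nM, ascorbic acid at 50 µg/mL and beta-glycerophosphate at 10 mM, so the glucocorticoid was present on the bare alloy too. The labels mark the TiB2 libraries as not used in the submitters' final analysis. Nothing says whether libraries of a surface came from separate cultures, so each p-value rests on library-to-library spread that may be technical.

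Cytokines of this family signal through a shared receptor chain, gp130, the product of IL6ST. IL6 and IL11 first bind chains of their own, IL6R and IL11RA, and then pair gp130 with itself, whereas LIF pairs gp130 with LIFR, CLCF1 pairs it with LIFR after binding CNTFR, and oncostatin M can pair it with OSMR. The paired chains activate JAK kinases and the transcription factor STAT3, which switches on SOCS3, and the SOCS3 protein in turn binds gp130 and blocks the kinases. In bone the family acts on both osteoblasts and the osteoclasts they support, and glucocorticoids such as dexamethasone are known to hold down IL6 transcription.

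Library totals ran from 58464306 to 72542556 counts. Levels are given as CPM, the counts-per-million scale after TMM scaling of library size over all 9 libraries, and as the authors' FPKM, which is also divided by gene length, where genes are compared with each other. Where a gene had no counts, counting error alone left room for 3 counts, which is 0.0454 to 0.0547 CPM depending on the library. Bare alloy replicate 1 stood apart from its group: 4 rows in the ribosomal DNA arrays of chromosome 21 took 6.46% of its counts, 1.07% and 0.617% in replicates 2 and 3 and 0.0831% to 0.197% in the 6 other libraries. Of the T cell markers, CD3D, CD3E and LCK had no counts in bare alloy replicate 1 or the 3 HA libraries and 57 to 175 counts in each of the other 5. The other T cell markers did not split the libraries so cleanly. PTPRC had 21 counts in bare alloy replicate 1, 7 to 26 in the HA libraries and 13 to 63 in the other 5. CD247 had 3 counts, 0 to 30 and 29 to 59 in the same order, and CD2 had counts only in TiB2 replicate 3 (9). The 8 stromal and osteoblast markers checked (COL1A1, COL1A2, COL3A1, SPARC, VIM, RUNX2, ALPL, THY1) were present in every library. They summed to 18340 to 20014 CPM on bare alloy, 9746 to 10189 CPM in the TiB2 libraries and 6242 to 10482 CPM in the HA libraries, so the sum was lower in every coated library. ALPL went the other way (1.10 to 2.17 CPM on bare alloy and 8.46 to 16.3 CPM in the coated libraries), as did THY1 (36.6 to 46.5 and 64.2 to 142 CPM). RUNX2 was also higher on TiB2 (3.38 to 4.16 CPM) than on bare alloy (2.07 to 2.68 CPM), and the HA libraries (2.15 to 4.12 CPM) overlapped bare alloy. The part of these markers in the results was not tested. The 6 epithelial markers summed to 9.66 to 15.1 CPM, although the labels call the line epithelial-like. Replicates differed more on the HA coating, where the median squared deviation between libraries was 43.4 to 69.0 times the Poisson value, against 11.9 to 16.4 times on the other surfaces.

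On both boron-containing surfaces the transcripts of 2 ligands, IL6 and LIF, and of the feedback gene SOCS3 were higher than on bare alloy, while that of the IL11 receptor chain IL11RA was lower. IL6 was 22.1-fold higher on TiB2 and 13.2-fold higher on the HA coating, LIF 5.91-fold and 4.13-fold, and SOCS3 by 1.07 and 1.31 on the log2 scale. IL11RA was 2.62-fold and 2.06-fold lower. IL6R, OSMR and CLCF1 rose by smaller amounts on TiB2 and were not called on the HA coating. The shared chain IL6ST and the LIF receptor chain LIFR were not called in any comparison. Here called means an adjusted p under 0.05 in edgeR's quasi-likelihood test fitted over all genes of the 6 libraries compared, with Benjamini-Hochberg adjustment. Both comparisons with bare alloy share its 3 libraries.

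By that test 4 of the 10 members were called on the HA coating (3 higher, 1 lower), where 9.89% of the 20117 genes tested were called (5.02% higher, 4.88% lower). On TiB2 7 of 10 were called (6 higher, 1 lower), against 25.1% of 20152 genes (12.9% higher, 12.2% lower). DESeq2 called as many of the members, 4 and 7, against 20.1% and 29.2% of the genes it adjusted. At an unadjusted p under 0.05 the members numbered 5 and 7, against 27.3% and 36.7% of all genes. The CPM of the 3 coated libraries did not overlap that of the 3 bare alloy libraries for 5 members on the HA coating (34.5% of all genes) and for 7 on TiB2 (42.1%). Their median log2 fold change was 0.02 on the HA coating and 0.46 on TiB2, beside 0.02 and 0.00 for all genes tested. All 10 members passed the filter on low counts in each comparison.

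**Figure D1:**
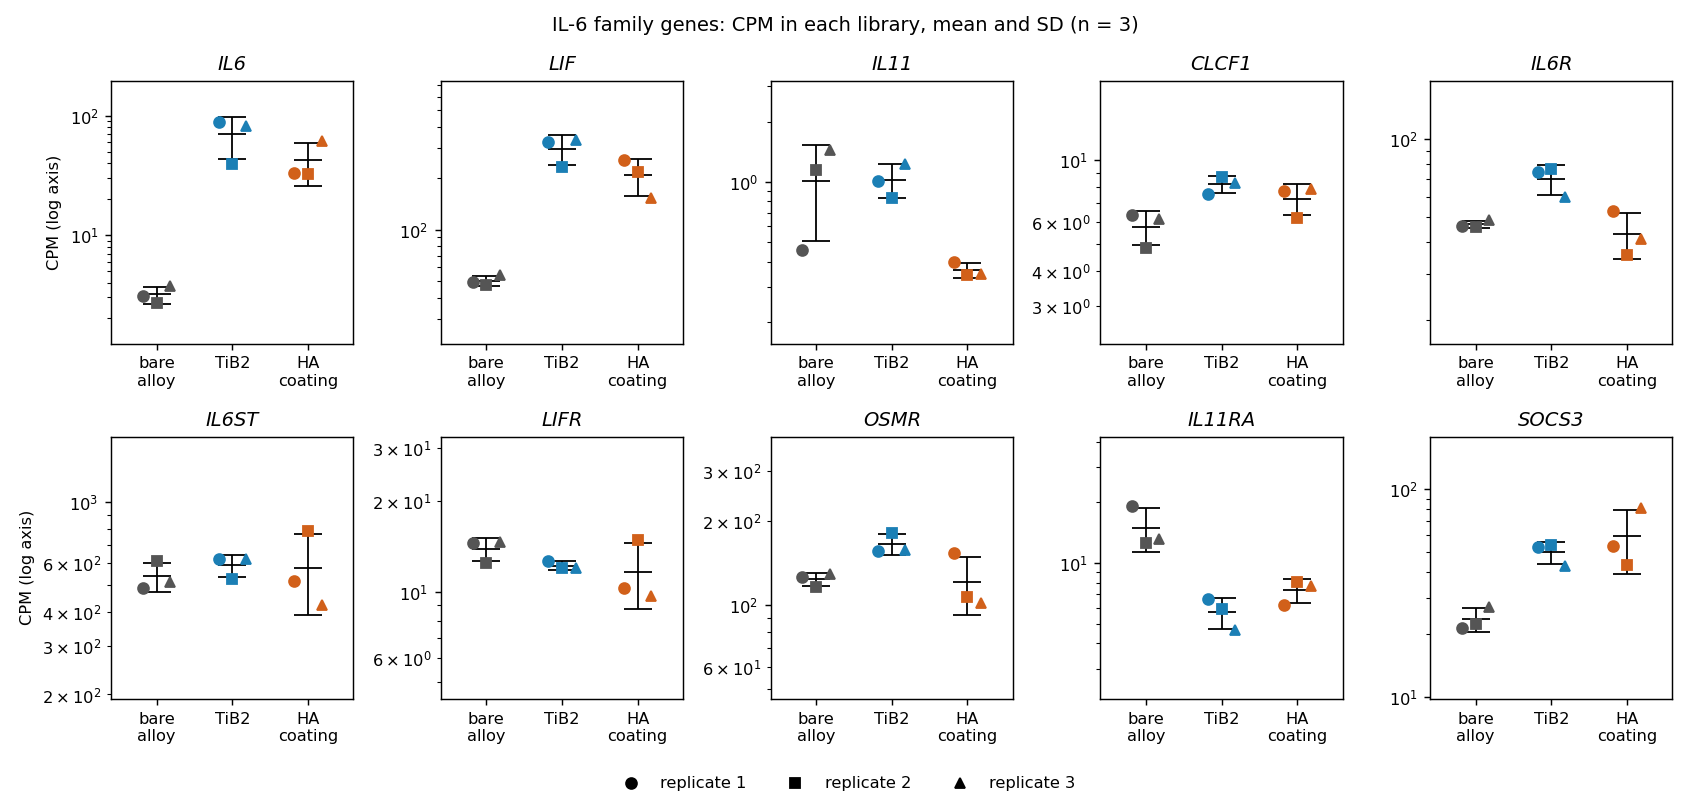
CPM (log axis, scaled per panel) of the 10 genes in each of the 9 libraries by surface; symbols are replicates and the bars the mean and SD of 3 libraries. IL6, LIF and SOCS3 lie higher on TiB2 and the HA coating than in any bare alloy library, IL11RA lies lower, and for IL11 bare alloy replicate 1 lies near the HA libraries.

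IL6 encodes the founding cytokine of the family, a driver of the acute phase response and of osteoclast support (ENSG00000136244, GRCh38 chromosome 7, 22725884 to 22732002, plus strand). Its 250 bases before the RefSeq start (GRCh38.p14, chr7:22726950-22727199, plus strand) are shown because this gene had the largest rise of the 10 and its promoter is known for binding NF-kB and C/EBP factors. Capitals mark the matches to GACGTCA (a cyclic AMP response element, CRE), TTGCNNAA (C/EBP) and the NF-kB motif (GGG, any 2 bases, TTTCC), in that order.
IL6: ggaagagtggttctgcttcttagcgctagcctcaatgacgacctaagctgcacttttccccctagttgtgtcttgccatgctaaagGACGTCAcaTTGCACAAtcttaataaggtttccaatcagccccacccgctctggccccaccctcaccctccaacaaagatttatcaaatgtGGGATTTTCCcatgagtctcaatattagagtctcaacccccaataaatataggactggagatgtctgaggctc
Counted back from the start, the CRE match spans bases 164 to 158, the C/EBP match 155 to 148 and the NF-kB match 73 to 64. Of 35116 RefSeq promoter windows of this length, read on both strands, 3.12% hold the CRE letters, 9.05% the C/EBP letters and 1.73% the NF-kB letters. A further 2 motifs were searched, TGANTCA (AP-1, in 6.57% of windows) and TTCNNNGAA (STAT, in 6.57%), and neither is in the IL6 window. A match describes letters in the window and shows no binding.

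IL6 transcripts lay at 3.10, 2.71 and 3.74 CPM in bare alloy replicates 1 to 3. On TiB2 they reached 89.2, 39.5 and 82.8 CPM. HA libraries reached 33.0, 32.8 and 61.4 CPM. Every coated library was above every bare alloy library, and the lowest HA library still stood 8.77 times above the highest bare alloy library. The 2 coated groups overlapped, with TiB2 replicate 2 between the HA libraries. The log2 fold change was 4.47 ± 0.30 (SE) for TiB2 against bare alloy (edgeR adjusted p = 1.42e-05) and 3.72 ± 0.29 for the HA coating (edgeR adjusted p = 0.000306). Directly compared, the HA coating lay 0.75 ± 0.33 lower than TiB2 on the log2 scale, which was not called (edgeR adjusted p = 0.412; 95% confidence interval -1.49 to -0.01). The rows STEAP1B (371 to 1231 counts per library) and IL6-AS1 (8 to 29 counts) overlap IL6 on the other strand by 1730 and 1737 bases. Whether the counting used strand is not given, so reads of these rows and of IL6 could be mixed there.

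LIF encodes leukaemia inhibitory factor, which acts on osteoblasts and stem cells through LIFR and gp130 (ENSG00000128342, chromosome 22, 30240453 to 30246759, minus strand). On bare alloy it stood at 49.4, 47.3 and 54.1 CPM. TiB2 libraries held 325, 231 and 336 CPM, and HA libraries 255, 216 and 154 CPM. Again no coated library overlapped the bare alloy group, and the groups on TiB2 and the HA coating overlapped each other. The rise was 2.56 ± 0.14 on the log2 scale on TiB2 (SE; edgeR adjusted p = 4.07e-06) and 2.05 ± 0.21 on the HA coating (edgeR adjusted p = 0.00113). The direct difference between the coatings was -0.52 ± 0.23 (edgeR adjusted p = 0.418; 95% interval -1.05 to 0.00). IL6 and LIF did not order the HA libraries alike: HA replicate 3 had the highest IL6 and the lowest LIF of its group, whereas TiB2 replicate 2 was the lowest of its group for both. The antisense row LIF-AS2, which overlaps LIF by 555 bases, had 23 to 229 counts per library, against 2709 to 21613 for LIF.

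CLCF1 encodes cardiotrophin-like cytokine factor 1, a ligand of the LIFR and gp130 pair (ENSG00000175505, chromosome 11, 67364168 to 67374177, minus strand). It lay at 6.32, 4.85 and 6.12 CPM on bare alloy, 7.56, 8.68 and 8.28 CPM on TiB2, and 7.75, 6.18 and 7.87 CPM on the HA coating. The TiB2 libraries were all above the bare alloy ones, while HA replicate 2 fell within the bare alloy range. CLCF1 was called on TiB2 at 1.42-fold (0.50 ± 0.16, SE; edgeR adjusted p = 0.0433), and that call was lost when any 1 of the 6 libraries was left out (edgeR adjusted p = 0.0521 to 0.129). For the HA coating the difference was 0.33 ± 0.21 (edgeR adjusted p = 0.355). The gene lies within RAD9A on the opposite strand (300 to 608 counts per library, against 310 to 562 for CLCF1), so its values are uncertain if strand was not used.

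IL11 encodes interleukin-11, a cytokine of bone and stroma (ENSG00000095752, chromosome 19, 55364382 to 55370463, minus strand), and was the lowest of the ligands with 22 to 88 counts per library. Its promoter window (GRCh38.p14, chr19:55370464-55370713, minus strand) is shown too, and any part of its letters in the levels was not tested. Capitals mark its only match among the 5 motifs, TGANTCA (AP-1), 96 to 90 bases before the start.
IL11: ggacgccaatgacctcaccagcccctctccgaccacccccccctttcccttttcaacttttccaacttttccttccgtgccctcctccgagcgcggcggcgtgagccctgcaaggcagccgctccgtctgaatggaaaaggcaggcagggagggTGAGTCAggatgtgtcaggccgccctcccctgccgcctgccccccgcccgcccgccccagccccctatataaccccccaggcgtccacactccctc
IL11 levels on bare alloy were 0.455 CPM in replicate 1, 1.14 CPM in replicate 2 and 1.45 CPM in replicate 3. TiB2 libraries held 1.01, 0.834 and 1.23 CPM, and HA libraries 0.399, 0.343 and 0.348 CPM. Bare alloy replicate 1 thus lay next to the HA libraries, and replicates 2 and 3 next to TiB2. Neither comparison with bare alloy was called, at -1.49 ± 0.50 on the HA coating (SE; edgeR adjusted p = 0.0963) and 0.01 ± 0.42 on TiB2 (edgeR adjusted p = 0.990). Without bare alloy replicate 1 the HA difference was -1.84 ± 0.45 (edgeR adjusted p = 0.0573). Against that library alone it was -0.31, a value from 1 bare alloy library and so with no replicate check on that side. The HA libraries were all below the TiB2 libraries, by 2.83-fold, which was not called either (-1.50 ± 0.40; edgeR adjusted p = 0.180).

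**Figure D2:**
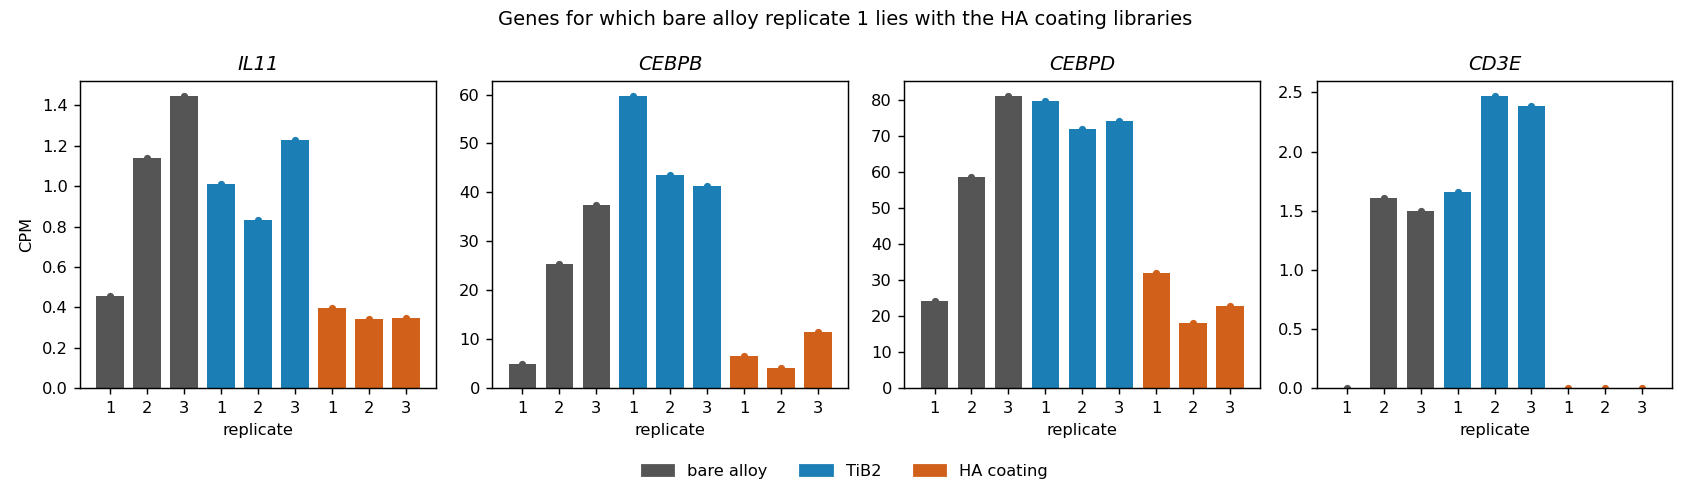
CPM of IL11, of the transcription factor genes CEBPB and CEBPD, and of the T cell gene CD3E in each library, coloured by surface, with replicate numbers below. Bare alloy replicate 1 stands at 0.455, 4.94 and 24.3 CPM for the first 3 genes, near the HA libraries, and CD3E is at 0 in these 4 libraries.

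CEBPB and CEBPD, which encode C/EBP factors that act on the IL6 promoter, shared the pattern of IL11; these 2 were singled out after their values were seen. CEBPB stood at 4.94 CPM in bare alloy replicate 1, 25.5 and 37.4 CPM in replicates 2 and 3, 41.3 to 59.8 CPM on TiB2, and 4.03 to 11.4 CPM on the HA coating. It was 6.61-fold lower on the HA coating than on TiB2 (-2.72 ± 0.34 on the log2 scale, SE; edgeR adjusted p = 0.00720), and CEBPD was 3.11-fold lower (-1.64 ± 0.22; edgeR adjusted p = 0.00983). Both calls were lost with no filter on low counts (edgeR adjusted p = 0.0944 and 0.0925) and in a fit of all 9 libraries (0.0899 and 0.0887), and that of CEBPD also without TiB2 replicate 1 (0.0680) or HA replicate 2 (0.0606). The bare alloy library without CD3E counts is the one that resembles the HA libraries for these genes, and all TiB2 libraries hold CD3E counts. For IL6, LIF, SOCS3 and IL11RA bare alloy replicate 1 lay apart from the HA libraries, on the same side as replicates 2 and 3. For IL11, CEBPB and CEBPD, the surface and the set of libraries cannot be told apart in the comparison of the HA coating with TiB2. For IL6 the log2 difference of TiB2 from bare alloy replicates 2 and 3 was 4.44 ± 0.37 (edgeR adjusted p = 9.07e-05), and for LIF it was 2.55 ± 0.17 (edgeR adjusted p = 2.96e-05). Against bare alloy replicate 1 alone the HA libraries were 13.7-fold higher for IL6 and 4.28-fold higher for LIF. These last 2 values rest on 1 bare alloy library, whose spread is not known; with its spread taken from the HA libraries, IL6 was called and LIF was not (edgeR adjusted p = 0.00184 and 0.0569).

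Per gene length, LIF was the main ligand transcript on every surface. It made up 74.8% to 76.9% of the summed FPKM of the 4 ligands on bare alloy, 77.0% to 80.8% in the TiB2 libraries and 68.2% to 84.6% in the HA libraries. The sum itself was 14.9 to 18.2 FPKM on bare alloy, 72.4 to 108 FPKM in the TiB2 libraries and 50.4 to 76.2 FPKM in the HA libraries. The share of IL6 was 3.89% to 4.57% on bare alloy, against 12.4% to 18.9% in the TiB2 libraries and 9.78% to 24.3% in the HA libraries. The share of CLCF1 was 16.5% to 20.1% on bare alloy and 3.76% to 7.32% in the coated libraries, and that of IL11 was 0.186% to 2.84% over all libraries. The FPKM of LIF was 16.4 to 19.8 times that of IL6 on bare alloy, 4.07 to 6.53 times in the TiB2 libraries and 2.80 to 8.65 times in the HA libraries.

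**Figure D3:**
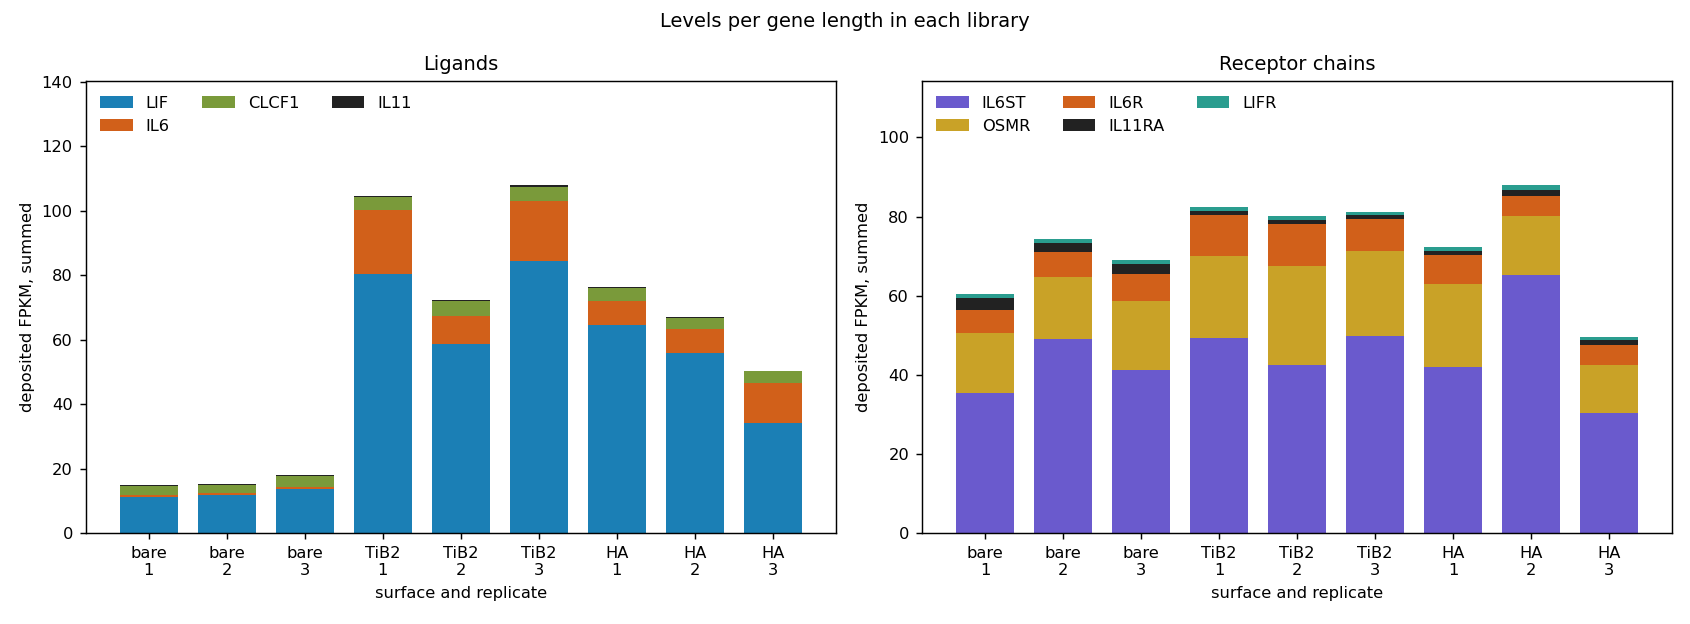
Deposited FPKM of the 4 ligands (left) and the 5 receptor chains (right), stacked for each of the 9 libraries. The ligand sums are 14.9 to 18.2 FPKM on bare alloy and 50.4 to 108 in the coated libraries, while the receptor sums are 60.6 to 74.3 FPKM on bare alloy and 49.5 to 87.9 in the coated libraries.

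Of the 5 receptor chains, 2 were called higher and 1 lower on TiB2, and 1 lower on the HA coating. All genes tested gave 12.9% higher and 12.2% lower on TiB2, and 5.02% and 4.88% on the HA coating. IL6ST, which encodes gp130 (ENSG00000134352, chromosome 5, 55935095 to 55995022, minus strand), stood at 488, 611 and 510 CPM on bare alloy, 622, 524 and 620 CPM on TiB2, and 517, 785 and 423 CPM on the HA coating. The 3 groups overlapped, and HA replicates 2 and 3 were the highest and the lowest of all 9 libraries. The log2 difference from bare alloy was 0.13 ± 0.11 on TiB2 (SE; edgeR adjusted p = 0.410; 95% interval -0.10 to 0.37) and 0.09 ± 0.25 on the HA coating (edgeR adjusted p = 0.844; -0.46 to 0.65). IL6ST was by FPKM the largest of the receptor chains in every library, at 53.2% to 74.2% of their sum.

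IL6R encodes the chain that binds IL6 and is also shed as a soluble receptor (ENSG00000160712, chromosome 1, 154405193 to 154466877, plus strand). Bare alloy libraries held 46.1, 45.9 and 48.6 CPM, TiB2 libraries 74.6, 76.4 and 59.7 CPM, and HA libraries 52.7, 35.6 and 41.0 CPM. TiB2 lay above both other groups, and the HA libraries spanned the bare alloy range. IL6R rose 1.50-fold on TiB2 (0.58 ± 0.10, SE; edgeR adjusted p = 0.00262), and its difference on the HA coating was -0.13 ± 0.18 (edgeR adjusted p = 0.684). The direct difference of the HA coating from TiB2 was -0.71 ± 0.20 and was not called by edgeR (adjusted p = 0.198). DESeq2 called it (adjusted p = 0.0424), as did edgeR without HA replicate 1 (adjusted p = 0.0345).

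OSMR encodes the oncostatin M receptor chain (ENSG00000145623, chromosome 5, 38845858 to 38945596, plus strand). It stood at 126, 116 and 129 CPM on bare alloy, 156, 181 and 157 CPM on TiB2, and 153, 107 and 101 CPM on the HA coating. As for IL6R, the TiB2 libraries were above all others, and HA replicate 1 was the highest of its group. OSMR rose 1.33-fold on TiB2 (0.41 ± 0.08, SE; edgeR adjusted p = 0.00568), and that call was lost in a fit of all 9 libraries (edgeR adjusted p = 0.164). For the HA coating the difference was -0.05 ± 0.19 (edgeR adjusted p = 0.909). Its 3′ end overlaps RICTOR on the other strand, a row of 4486 to 9061 counts per library.

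LIFR encodes the chain that pairs with gp130 for LIF and CLCF1 (ENSG00000113594, chromosome 5, 38474668 to 38595404, minus strand). Its levels were 14.4, 12.5 and 14.6 CPM on bare alloy, 12.7, 11.9 and 12.0 CPM on TiB2, and 10.2, 14.9 and 9.67 CPM on the HA coating. HA replicate 2 was the highest of all libraries for both LIFR and IL6ST. The differences from bare alloy were -0.18 ± 0.11 on TiB2 (edgeR adjusted p = 0.288) and -0.26 ± 0.21 on the HA coating (SE; edgeR adjusted p = 0.467). By FPKM OSMR was 12.1 to 25.8 times as high as LIFR, the range over all 9 libraries. RefSeq promoter windows of LIFR held matches to the STAT and C/EBP letters, and that of OSMR held a match to the C/EBP letters. A further LIFR window held none of the 5 motifs, nor did the windows of IL6R, IL6ST and IL11RA. Of all RefSeq windows of this length 6.57% hold the STAT letters and 9.05% the C/EBP letters.

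IL11RA encodes the chain that binds IL11 (ENSG00000137070, chromosome 9, 34652162 to 34661902, plus strand). It lay at 19.2, 12.5 and 13.2 CPM on bare alloy, 6.64, 5.90 and 4.65 CPM on TiB2, and 6.22, 8.04 and 7.73 CPM on the HA coating. Each coated library was below each bare alloy library. The fall was -1.39 ± 0.20 on TiB2 (SE; edgeR adjusted p = 0.00112) and -1.04 ± 0.23 on the HA coating (edgeR adjusted p = 0.0229). The HA call was lost in 4 of the 6 cases with 1 library left out, among them each of the 3 bare alloy libraries and HA replicate 2 (edgeR adjusted p = 0.0586 to 0.0926). A row on the same strand, ENSG00000258728, spans nearly all of IL11RA and has 329 to 999 counts per library, against 299 to 1056 for IL11RA, so reads could be split between them. With the 2 rows summed the falls were -0.92 ± 0.12 on TiB2 (edgeR adjusted p = 0.000582) and -1.06 ± 0.17 on the HA coating (edgeR adjusted p = 0.00650). That sum was chosen after the data were seen. The FPKM ratio of IL6R to IL11RA was 1.82 to 2.79 on bare alloy, 8.58 to 10.0 in the TiB2 libraries and 3.38 to 6.46 in the HA libraries.

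SOCS3 encodes the inhibitor induced by STAT3 that binds gp130 (ENSG00000184557, chromosome 17, 78356778 to 78360077, minus strand). It stood at 21.4, 22.4 and 27.1 CPM on bare alloy, 52.9, 53.7 and 42.5 CPM on TiB2, and 53.2, 42.9 and 81.5 CPM on the HA coating. No coated library overlapped bare alloy, and HA replicate 3, the highest for SOCS3, was also the highest of its group for IL6. The rise was 1.07 ± 0.12 on TiB2 (SE; edgeR adjusted p = 0.000283) and 1.31 ± 0.24 on the HA coating (edgeR adjusted p = 0.0114). The HA call was lost without bare alloy replicate 1 (1.25; edgeR adjusted p = 0.0554) or replicate 2 (1.28; edgeR adjusted p = 0.0653), at nearly the same size. No other row of the table overlaps SOCS3. Neither of its RefSeq promoter windows (GRCh38.p14, chr17:78360926-78361175 and chr17:78359668-78359917, minus strand) holds any of the 5 motifs, which says only that these letters are not in the windows. The first window lies upstream of the 5′ end of the SOCS3 row, at 78360077, and the second lies within the row. The bases directly before that end were not searched, so whether they hold a STAT match was not tested.

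**Figure D4:**
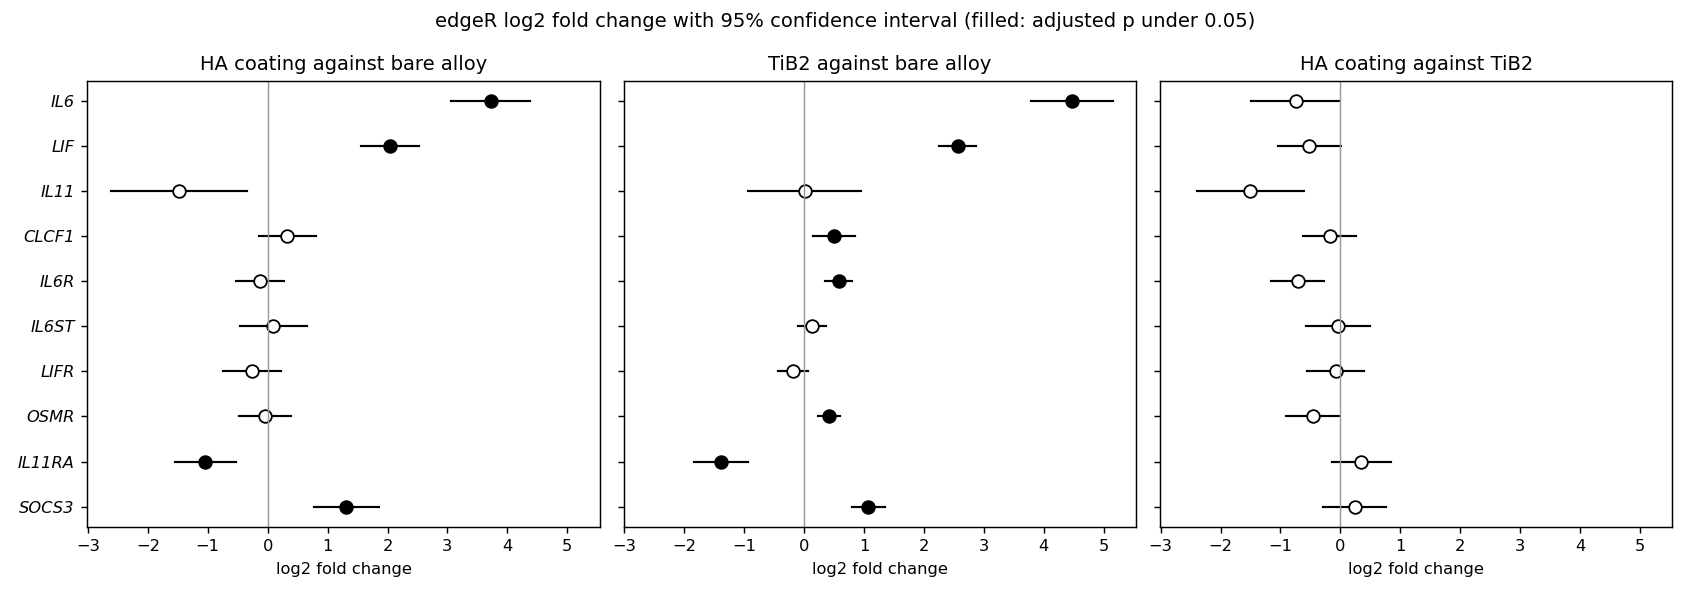
edgeR log2 fold change (points) with its 95% confidence interval (lines) for the 10 genes in the 3 comparisons; filled points have an adjusted p under 0.05. IL6 (3.72 and 4.47) and LIF (2.05 and 2.56) stand furthest to the right against bare alloy, and no point is filled for the HA coating against TiB2.

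Between the HA coating and TiB2 edgeR called none of the 10 members, against 0.632% of 20086 genes (0.179% higher, 0.453% lower). The libraries did not overlap for 3 members (IL11, IL6R and OSMR, all lower on the HA coating), against 18.1% of all genes. At an unadjusted p under 0.05, which 12% of all genes met, 4 members were lower on the HA coating (IL6, IL11, IL6R and OSMR) and none higher. DESeq2 called IL6R alone, against 2.5% of the genes it adjusted. Without HA replicate 1 edgeR called 2 members lower, IL6R and OSMR (-0.68 ± 0.15; edgeR adjusted p = 0.0448). Over all genes that fit called 560 higher and 664 lower, more than the 36 and 91 of the main fit. The median log2 difference of the members was -0.32, beside 0.02 for all genes.

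In the order of levels by mean FPKM, IL6ST led on bare alloy (41.8), followed by OSMR (16.2), LIF (12.2), SOCS3 (8.13), IL6R (6.29), CLCF1 (2.93), IL11RA (2.62), LIFR (1.06), IL6 (0.681) and IL11 (0.356). Of neighbours in that order only CLCF1 and IL11RA overlapped over their 3 libraries. On TiB2 LIF led (74.5), above IL6ST (47.3), and IL6 (15.8) overlapped SOCS3 (17.6) above it and IL6R (9.73) below it. In the HA libraries LIF (51.6) and IL6ST (45.8) overlapped, SOCS3 (20.2) overlapped OSMR (16.0), and OSMR overlapped IL6 (9.09). IL11 was last on each surface.

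By a fixed rule the genes most like IL6 were those with the smallest root mean square difference from it between centred log2 CPM profiles over the 9 libraries, among 13764 genes with a symbol and a mean of at least 1 CPM. They were PTGS2, which encodes the inducible cyclooxygenase (0.37), the cytokine gene IL1B (0.39), the bone morphogenetic protein gene BMP2 (0.45), the pseudogene RPLP0P2 (0.53) and the growth factor gene CSF2 (0.56). PTGS2 lay at 50.1 to 54.1 CPM on bare alloy, 385 to 830 CPM on TiB2 and 414 to 569 CPM on the HA coating. IL1B lay at 3.47 to 5.16 CPM, 58.6 to 151 CPM and 50.3 to 143 CPM. CSF2 had no counts on bare alloy, 2.21 to 5.22 CPM on TiB2 and 0.592 to 1.06 CPM on the HA coating. The genes most like LIF were MTSS1 (0.25), SOD2, the mitochondrial superoxide dismutase (0.25), RASAL3 (0.26), STRIP2 (0.29) and ZC3H12A (0.30). SOD2 stood at 214 to 231 CPM on bare alloy, 982 to 1522 CPM on TiB2 and 956 to 1087 CPM on the HA coating. The 9 libraries share 3 surfaces, so these likenesses are descriptions of a shared pattern across surfaces.

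Among other ligands and receptor chains of the family, IL27, IL31 and CNTFR had no row under these symbols and so were not analysed here. OSM, the ligand of OSMR, had 4 counts in HA replicate 1 and 0 in the other 8 libraries, and CTF1, which encodes cardiotrophin-1, had 9 counts in TiB2 replicate 2 and 0 elsewhere. On TiB2 IL27RA, a receptor chain that pairs with gp130, rose 2.84-fold (edgeR adjusted p = 0.000245), and IL31RA, which pairs with OSMR, fell 1.76-fold (edgeR adjusted p = 0.0181). The IL31RA call was lost without bare alloy replicate 2 or 3 or TiB2 replicate 1 or 2 (edgeR adjusted p = 0.0502 to 0.0704). On the HA coating both genes moved the same way but were not called by edgeR. IL27RA was 1.74-fold higher there (edgeR adjusted p = 0.0709) and IL31RA 1.97-fold lower (edgeR adjusted p = 0.0597). DESeq2 called 1 gene of this list higher and 1 lower on the HA coating, against 20.1% of the genes it adjusted.

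Among 11 kinases, STATs and adaptors, 2 were higher and 2 lower on TiB2, and 1 was lower on the HA coating. Of all genes tested 12.9% were called higher and 12.2% lower on TiB2, and 5.02% and 4.88% on the HA coating. STAT5A (1.85-fold; edgeR adjusted p = 0.000304) and STAT5B (1.68-fold; edgeR adjusted p = 0.000278), transcription factors used by many cytokine receptors, rose on TiB2. The adaptor gene GAB1 fell 1.47-fold there (edgeR adjusted p = 0.0341), and the kinase gene JAK1 fell 1.52-fold on the HA coating (edgeR adjusted p = 0.0437). The GAB1 call was lost without bare alloy replicate 1 or 2 or TiB2 replicate 1 or 2 (edgeR adjusted p = 0.0898 to 0.0988), and the JAK1 call without any 1 of the bare alloy libraries or HA replicate 2 (0.0903 to 0.194). On the HA coating GAB1 was 1.58-fold lower than on bare alloy, which was not called (edgeR adjusted p = 0.112). Its direct log2 difference of the HA coating from TiB2 was -0.11 ± 0.25 (SE; edgeR adjusted p = 0.883). STAT3, the main transducer of gp130, was not called, at 300 to 315 CPM on bare alloy, 287 to 315 CPM on TiB2 and 217 to 306 CPM on the HA coating. The median log2 fold change of these 11 genes was 0.04 on TiB2 and -0.07 on the HA coating, beside 0.00 and 0.02 for all genes tested.

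Of 12 other negative regulators, 6 were higher and 1 lower on TiB2 (median 0.34), and 2 were higher and none lower on the HA coating (median 0.08). For all genes tested the shares were 12.9% and 12.2% on TiB2 (median 0.00) and 5.02% and 4.88% on the HA coating (median 0.02). SOCS2, which restrains growth hormone signalling, rose 1.59-fold on TiB2 (edgeR adjusted p = 0.000242) and 1.99-fold on the HA coating (edgeR adjusted p = 0.0150). PTPN2, a phosphatase that acts on JAK and STAT proteins, rose 1.59-fold (edgeR adjusted p = 0.000605) and 2.00-fold (edgeR adjusted p = 0.0243). The HA calls were lost when any 1 bare alloy library was left out (edgeR adjusted p = 0.0722 to 0.0868 for SOCS2 and 0.0721 to 0.122 for PTPN2), and that of PTPN2 also without HA replicate 2 (0.0768). SOCS1, an inhibitor of JAK kinases, rose on TiB2 from 1.40 to 4.91 CPM (edgeR adjusted p = 0.00435) and lay at 0.452 to 1.97 CPM on the HA coating, a range that held all 3 bare alloy libraries (0.656 to 1.88 CPM). SOCS5 fell 1.73-fold on TiB2 (edgeR adjusted p = 0.000299). At an unadjusted p under 0.05 4 of the 12 were higher and 1 lower on the HA coating (27.3% of all genes in either direction), and DESeq2 called 3 higher and none lower (20.1%).

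Of 20 textbook STAT3 targets, 7 of 18 tested were higher and 1 lower on TiB2 (median 0.36), and 2 of 17 were higher and none lower on the HA coating (median 0.06). All genes tested gave 12.9% higher and 12.2% lower on TiB2 (median 0.00), and 5.02% and 4.88% on the HA coating (median 0.02), where 9.89% were called in all and the 2 of 17 lay near that share. At an unadjusted p under 0.05 5 were higher and 2 lower on the HA coating (27.3% of all genes in either direction), and DESeq2 called 5 higher and 1 lower (20.1%). The HA rises were the acute phase genes SAA1 and SAA2, both also called on TiB2. SAA1 had 8, 3 and 0 counts on bare alloy, 73, 30 and 67 on TiB2, and 53, 61 and 164 on the HA coating (edgeR adjusted p = 0.0110 and 0.0175). SAA2 had 0, 0 and 3 counts on bare alloy, 40, 31 and 18 on TiB2, and 28, 28 and 87 on the HA coating (edgeR adjusted p = 0.0108 and 0.0185). Both coatings were above bare alloy in every library for both genes. On the HA coating the SAA1 call was lost without bare alloy replicate 2, HA replicate 2 or HA replicate 3 (edgeR adjusted p = 0.0544 to 0.0795), and the SAA2 call without those or bare alloy replicate 1 (0.0522 to 0.0704). On TiB2 the SAA2 call was lost without TiB2 replicate 1 (0.0548). SAA1 and SAA2 are near-identical copies whose reads could be split, and no fold is given against so few counts. Against TiB2 edgeR called 2 of 17 lower on the HA coating, CEBPB and CEBPD as above, and none higher. All genes tested gave 0.453% lower and 0.179% higher in that comparison.

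Sheddases and regulators of IL6 mRNA were also read. ADAM17, the protease that releases soluble IL6R, rose 1.41-fold on TiB2 (edgeR adjusted p = 0.00134) and ADAM10, a related protease, 1.44-fold (edgeR adjusted p = 0.00269). The rhomboid-like ADAM17 partners RHBDF1 and RHBDF2 fell there 1.34-fold and 1.23-fold (edgeR adjusted p = 0.0291 and 0.0269). These falls were lost in several cases with 1 library left out, RHBDF1 without any 1 of the bare alloy libraries (0.0597 to 0.0913) and RHBDF2 without any 1 except bare alloy replicate 2 (0.0552 to 0.112). For the HA coating edgeR called none of these 4, all 4 had an unadjusted p under 0.05 (2 higher, 2 lower; 27.3% of all genes), and DESeq2 called 1 in each direction (20.1% of all genes). ZC3H12A encodes Regnase-1, a ribonuclease that degrades IL6 mRNA, and rose from 3.62 ± 0.62 CPM (SD, n = 3) to 23.5 ± 6.12 CPM on TiB2, 6.50-fold (edgeR adjusted p = 3.62e-05). It reached 11.6 to 19.9 CPM on the HA coating, 4.54-fold higher (edgeR adjusted p = 0.00210). ARID5A, which encodes a protein that stabilises IL6 mRNA, rose 2.03-fold on TiB2 (edgeR adjusted p = 7.40e-05) and 1.86-fold on the HA coating (edgeR adjusted p = 0.0338, lost without any 1 of the bare alloy libraries, 0.103 to 0.149). ZFP36L1 rose 1.41-fold on TiB2 (edgeR adjusted p = 0.0151, lost without bare alloy replicate 2 or 3 or TiB2 replicate 1, 0.0616 to 0.0703), and of the 5 regulators none fell in any comparison by edgeR, at an unadjusted p under 0.05 or by DESeq2. Of all genes tested edgeR called 12.2% lower on TiB2, 4.88% on the HA coating and 0.453% on the HA coating against TiB2. For 5 genes none lower is near those shares.

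**Figure D5:**
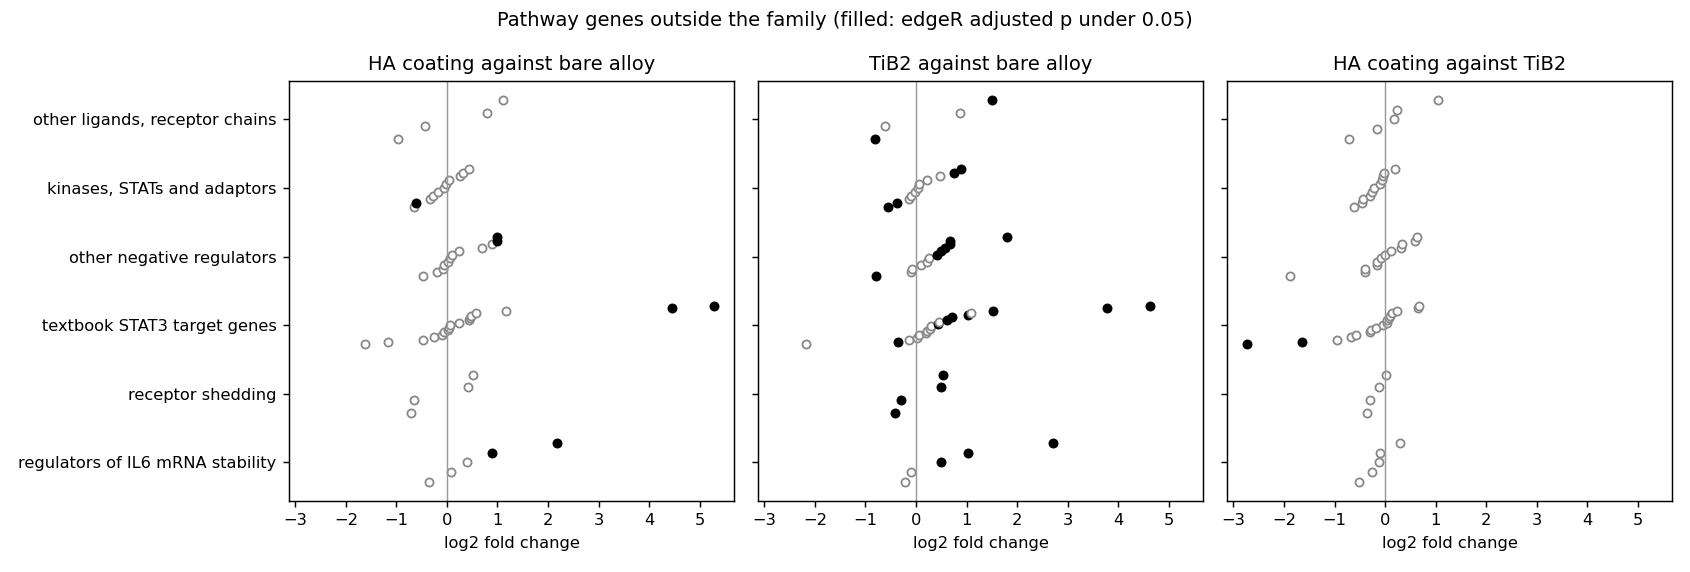
edgeR log2 fold changes of the tested genes of 6 pathway lists (rows) in the 3 comparisons; each point is a gene, filled where its adjusted p is under 0.05. The points furthest right against bare alloy are SAA1 and SAA2, which have 0 to 8 counts in each bare alloy library, and the 2 filled points against TiB2 are CEBPB and CEBPD.

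Macrophages and T cells are other sources of IL6. The 6 macrophage markers summed to 10.7 to 13.3 CPM on bare alloy, 11.4 to 14.5 CPM on TiB2 and 6.68 to 15.7 CPM on the HA coating, most of it CD14, which lay at 5.89 to 15.4 CPM over all libraries. CD14 was highest of all libraries in HA replicate 3, and lay at 11.4 to 14.5 CPM in the TiB2 libraries. CSF1R had 0 to 36 counts per library. CD163, LYZ, C1QA and C1QB were at 0 in every TiB2 library. On bare alloy CD163, LYZ and C1QB were at 0 and C1QA had 4 counts in replicate 1, and on the HA coating C1QA was at 0 and the other 3 had 0 to 47 counts. The 6 T cell markers summed to 0.437 to 6.45 CPM on bare alloy, 6.72 to 8.16 CPM on TiB2 and 0.378 to 0.590 CPM on the HA coating. The 4 endothelial markers summed to 28.9 to 37.9 CPM on bare alloy, 11.2 to 11.8 CPM on TiB2 and 12.6 to 14.3 CPM on the HA coating. The lower sums came mostly from CDH5 (20.5 to 27.9 CPM on bare alloy and 1.26 to 3.71 CPM in the coated libraries), while PECAM1 was higher on the HA coating (7.35 to 10.95 CPM) than on bare alloy (5.85 to 6.96 CPM) and lay at 5.73 to 7.01 CPM on TiB2. The part of the macrophage, T cell and endothelial markers in any result was not tested. In these bulk samples fewer cells of a type and less RNA per cell cannot be told apart.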

How the data were processed

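RNA-seq of MG-63 cells was analysed in 9 libraries, 3 per surface, grouped by sample title. Counts and FPKM values per gene are as the authors deposited them in 1 table. The submitters' processing notes name, without roles, the genome build GRCh38 and the tools featureCounts 2.0.1, StringTie 2.1.4, limma, HISAT2 2.2.1 and cutadapt 2.10. The sources used here do not say how strand or multimapping reads were handled. Of deposited counts from 1 to 20, 55.5% were even.

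Each comparison used its own 6 libraries: filterByExpr, TMM and the two-sided quasi-likelihood test of edgeR 4.0.16 (R 4.3.3), adjusted over all genes tested, threshold 0.05. The SE is the log2 fold change divided by the square root of F. Alternatives used DESeq2 1.42.0, limma 3.58.1 on log2(FPKM + 1 or 0.1), other filters and scaling, all 9 libraries, a replicate block and libraries left out. Likeness used log2(CPM + 0.1). Promoter windows came from RefSeq, matching 8 of 10 members; LIF and CLCF1 had no entry. In simulated counts with seeded changes, edgeR called 65% of 4-fold and 15% of 2-fold changes on the HA design (20117 genes against bare alloy). The figures were 67% and 39% with TiB2 in its place (20152 genes), and 68% and 21% between coatings (20086 genes). Far fewer genes were changed in the simulation than were called against bare alloy in the data (1990 on the HA coating and 5059 on TiB2). The adjustment depends on the share of changed genes, so these figures do not give the power of the real comparisons with bare alloy.

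All members are named, 1 other listed gene is not reported here, and from 6 further lists up to 4 called genes with the largest change. The members, lists and tests were chosen with earlier results of these data known.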

Additional observations from a re-analysis of the deposited data

How the results depend on the processing

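The rises of IL6 were called in all 15 alternatives on the HA coating (5.88-fold to 14.7-fold, the lowest with limma on log2(FPKM + 1), which understates low genes) and all 14 on TiB2 (9.50-fold to 27.0-fold). LIF and SOCS3 were called in all 14 on TiB2. With bare alloy replicate 1 as the only bare alloy library, assumed to vary like the HA libraries, 1 member was called higher on the HA coating and 0 lower (all genes 107 and 179), with LIF 4.28-fold higher (edgeR adjusted p = 0.0569) and SOCS3 at 1.47 (edgeR adjusted p = 0.215). Members called lower on the HA coating numbered 0 with no filter on low counts, 2 in the fit of all 9 libraries (IL11, -1.48, joined IL11RA), and 0 to 1 with 1 library left out, where 2 to 3 were higher. On TiB2 5 were higher and 1 lower in each such case (all genes 1899 to 2119 higher and 1786 to 2092 lower). Against TiB2, 0 to 2 were lower and 0 higher on the HA coating with 1 library left out, and DESeq2 called 1 lower.

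Counts over all genes moved more. On the HA coating against bare alloy edgeR called 1009 higher and 981 lower, DESeq2 1875 and 1687, edgeR with no filter 543 and 550, the fit of all 9 libraries 1860 and 1658, and with 1 library left out 274 to 2282 and 322 to 1903, highest without HA replicate 1, and at 561 and 531 or fewer without HA replicate 2 or any 1 bare alloy library. On TiB2 against bare alloy edgeR called 2594 and 2465, the fit of all 9 libraries 1016 and 1116. For the HA coating against TiB2 the 36 and 91 calls became 177 and 324 with DESeq2, 12 and 23 with no filter, 15 and 46 with a mean FPKM of at least 1, 39 lower in the fit of all 9 libraries, and 11 to 560 and 35 to 664 with 1 library left out, again highest without HA replicate 1. The cause was not tested.

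Replicate numbers did not pair the libraries: deviations of same-numbered libraries correlated at -0.10 to 0.05. With the replicate block the members called lower on the HA coating went from 1 to 0 (IL11RA, edgeR adjusted p = 0.0533), CLCF1 lost its call on TiB2 (edgeR adjusted p = 0.0959), all genes called higher on the HA coating numbered 637, and those higher against TiB2 59.

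Signs turned only for differences that were not called. On the HA coating against bare alloy with 1 library left out, IL6ST ran from -0.20 (without HA replicate 2) to 0.28, and OSMR from -0.25 to 0.073 (positive without HA replicate 2 or 3). On TiB2 against bare alloy IL11 ran from -0.34 (without bare alloy replicate 1; also negative without TiB2 replicate 3) to 0.35. On the HA coating against TiB2 IL6ST ran from -0.34 to 0.13 (positive without TiB2 replicate 3, HA replicate 1 or HA replicate 3), LIFR from -0.31 to 0.027 and SOCS3 from -0.062 to 0.42 (both turned without HA replicate 3), and IL11RA was -0.15 when summed with its overlapping row, an alternative chosen after the data were seen.

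Of 27 calls of named pathway genes 11 held in every alternative and 16 were lost in at least 1, among them JAK1 in 9 of 15. IL11 and, against TiB2, LIFR had no value with a mean FPKM of at least 1.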
